A study of Mus musculus with 2 samples.

Results

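The 9 enzymes described here carry carbon from threonine, serine and glycine into the folate and methionine cycles. They are Tdh, Gcat, Gldc, Shmt1, Shmt2, Mthfd1, Mthfd2, Mthfd1l and Mat2a, chosen by name and found by matching gene identifiers to the GENCODE mouse annotation. All 9 were among the 43346 Ensembl genes of the table. By textbook location 6 act in mitochondria (Tdh, Gcat, Gldc, Shmt2, Mthfd2 and Mthfd1l) and 3 in the cytosol (Shmt1, Mthfd1 and Mat2a). The RNA came from ES-E14, a line of embryonic stem cells from a male 129/Ola mouse embryo, with no treatment or genotype change given in the labels. The series holds 1 group of 2 total RNA libraries, biological replicates 1 and 2. Both cite the same source sample, and their spread may be technical. No comparison between conditions was possible.

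Threonine dehydrogenase oxidises threonine in mitochondria, and the next enzyme splits the product into glycine and acetyl-CoA. Mouse embryonic stem cells are known for their reliance on this route, while the human TDH gene is a pseudogene. Serine and glycine give their carbon to tetrahydrofolate, mitochondria export it as formate, and the cytosol spends it on purines, thymidylate and methionine. Methionine adenosyltransferase then turns methionine into S-adenosylmethionine, the methyl donor for DNA and histones.

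Enzymes imported into mitochondria usually carry a signal at their amino end that is rich in arginine and poor in acidic residues, so the start of the coding sequence is where the compartments can be compared. The first 90 coding bases (30 codons) of each member's most abundant transcript are shown with arginine codons in capitals. Sequences are from the GENCODE M21 transcripts, read 5′ to 3′ from the start codon.
Tdh: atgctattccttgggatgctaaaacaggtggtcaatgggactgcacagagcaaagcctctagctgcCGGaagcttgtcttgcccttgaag
Gcat: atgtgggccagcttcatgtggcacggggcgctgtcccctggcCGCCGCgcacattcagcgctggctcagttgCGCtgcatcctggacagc
Gldc: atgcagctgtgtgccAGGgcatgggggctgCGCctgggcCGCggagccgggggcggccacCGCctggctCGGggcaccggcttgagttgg
Shmt2: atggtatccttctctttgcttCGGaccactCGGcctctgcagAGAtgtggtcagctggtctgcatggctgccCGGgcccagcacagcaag
Mthfd2: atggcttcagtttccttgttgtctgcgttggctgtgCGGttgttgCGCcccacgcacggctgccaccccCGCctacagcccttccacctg
Mthfd1l: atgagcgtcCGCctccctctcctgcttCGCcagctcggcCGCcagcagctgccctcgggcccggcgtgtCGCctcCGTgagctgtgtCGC
Shmt1: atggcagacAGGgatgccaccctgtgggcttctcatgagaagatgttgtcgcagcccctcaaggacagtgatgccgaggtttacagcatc
Mthfd1: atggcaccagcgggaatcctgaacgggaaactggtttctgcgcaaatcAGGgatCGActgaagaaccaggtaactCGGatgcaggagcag
Mat2a: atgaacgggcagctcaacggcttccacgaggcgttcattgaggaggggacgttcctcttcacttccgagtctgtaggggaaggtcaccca
Acidic codons numbered 0 or 1 in all 6 mitochondrial members, and 6 in Shmt1, 5 in Mat2a and 2 in Mthfd1. Over 19341 leading coding transcripts the median was 3 acidic and 1 arginine codons, and 28.8% had at most 1 acidic codon. Arginine codons were most numerous in Mthfd1l with 6, Gldc with 5 and Shmt2 with 4, and these 3 were the only members with 4 or more arginine and at most 1 acidic codon, against 5.41% of all transcripts. Tdh had 1 arginine codon, as did cytosolic Shmt1, and Gcat, Mthfd2 and cytosolic Mthfd1 had 3 each, so arginine alone did not sort the members by compartment. The open reading frames held 478 codons for Shmt1 and 504 for Shmt2, the paired enzymes of the same reaction. They held 935 codons for Mthfd1, 977 for Mthfd1l and 350 for Mthfd2.

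All 9 enzymes were expressed. Each stood above 1 TPM, the usual length-corrected unit of transcript abundance, in both libraries, against 46.3% of 21474 protein-coding genes. At 10 TPM the number was 8 of 9, against 14.3%, with Gcat the exception. All 9 were also above 5 TPM, where the share of all genes was 24.4%, and so above 0.5 TPM (52.6%). They stood above 1 in posterior mean TPM (47.3%), FPKM (51.4%) and TPM rescaled to coding genes (59.1%), as in replicate 1 alone (47.5%) and replicate 2 alone (49.3%). The median member stood at 25.0 TPM and the median protein-coding gene at 0.88 TPM, as means of the libraries. Expected counts on the members ranged from 1009 to 16731 per library, out of 43163300 and 45573512 on all genes.

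**Figure D1:**
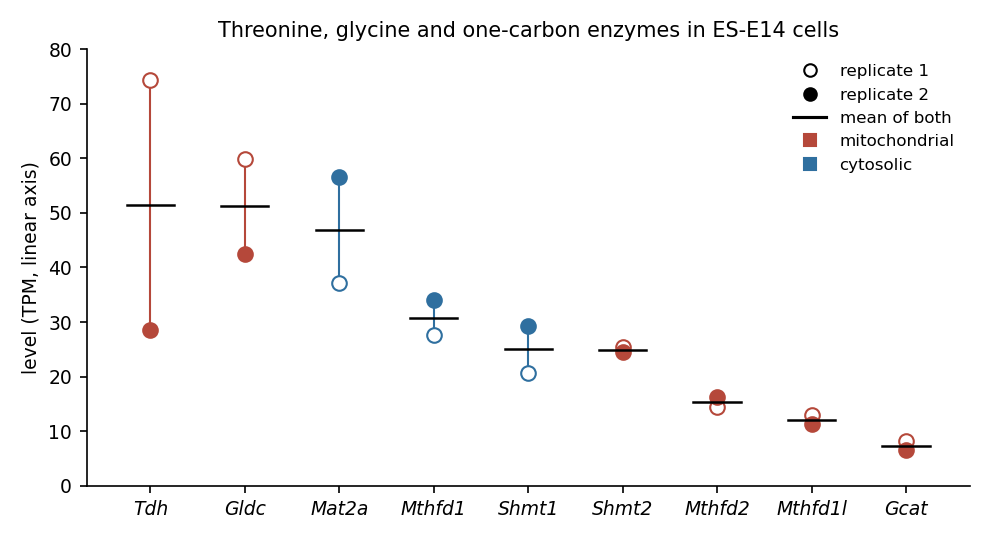
Level in TPM (linear axis) of each member in replicate 1 (open) and replicate 2 (filled), with the mean as a bar, ordered by the mean. Tdh spans 28.59 to 74.38 TPM, more than any other member, while Shmt2 spans only 24.47 to 25.41 TPM.

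In the order of mean levels, Tdh, Gldc and Mat2a led, Mthfd1, Shmt1 and Shmt2 followed, and Mthfd2, Mthfd1l and Gcat came last. Ranges of neighbours overlapped for Tdh with Gldc, Gldc with Mat2a, Mthfd1 with Shmt1, and Shmt1 with Shmt2, so those pairs cannot be ordered beyond their spread. In gene TPM the ranges were apart for Mat2a over Mthfd1, Shmt2 over Mthfd2, Mthfd2 over Mthfd1l and Mthfd1l over Gcat. Tdh was first in replicate 1 and 5th in replicate 2, and Mat2a was 3rd and first. The lowest 3 kept their ranks in both libraries by gene TPM. Counting protein-coding transcripts only, Mthfd2 stood at 12.14 and 14.26 TPM and Mthfd1l at 12.87 and 11.22 TPM. Their ranges then overlapped, and Shmt1, at 10.68 TPM in replicate 1, was below both there.

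Among the threonine enzymes, Tdh (ENSMUSG00000021953; chromosome 14, 63492347 to 63509092, minus strand, mm10) gave 8738 and 3333 expected counts in replicates 1 and 2. Its level was 74.38 and 28.59 TPM, or 51.5 ± 32.4 TPM (SD, n = 2), above 97.2% of protein-coding genes. Tdh was thus among the abundant messengers of both libraries, at levels far apart. Gcat (ENSMUSG00000006378; chromosome 15, 79030874 to 79038353, plus strand), glycine C-acetyltransferase, which completes the cleavage, stood at 8.1 and 6.59 TPM (7.35 ± 1.07 TPM). Tdh thus exceeded its partner in the pathway by 9.18-fold in replicate 1 and 4.34-fold in replicate 2. Other enzymes that break down threonine or serine were near the floor: threonine aldolase Tha1 stood at 0.59 and 0.26 TPM, Sds at 0.02 and 0.05 TPM and Sdsl at 0.01 and 0.15 TPM. None of these 3 reached 1 TPM, a level that 46.3% of protein-coding genes reached in both libraries.

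Gldc (ENSMUSG00000024827; chromosome 19, 30098447 to 30175429, minus strand) encodes glycine decarboxylase, the P protein of the mitochondrial glycine cleavage system. It stood at 59.86 and 42.51 TPM, or 51.2 ± 12.3 TPM (SD, n = 2), and had the most expected counts of the members, 16731 and 11315. The other subunits were Gcsh, the carrier H protein, at 25.81 and 45.19 TPM, the aminomethyltransferase Amt at 15.45 and 15.39 TPM, and the dehydrogenase Dld at 8.16 and 15.98 TPM. Gldc exceeded Amt by 3.87-fold and 2.76-fold and Dld by 7.34-fold and 2.66-fold. Its order with Gcsh changed, with a Gldc to Gcsh ratio of 2.32 in replicate 1 and 0.941 in replicate 2.

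The serine hydroxymethyltransferases move a carbon from serine to tetrahydrofolate and release glycine. Mitochondrial Shmt2 (ENSMUSG00000025403; chromosome 10, 127517123 to 127522444, minus strand) stood at 25.41 and 24.47 TPM, or 24.9 ± 0.665 TPM (SD, n = 2). Cytosolic Shmt1 (ENSMUSG00000020534; chromosome 11, 60788104 to 60811718, minus strand) stood at 20.66 and 29.34 TPM, or 25.0 ± 6.14 TPM. At the level of genes neither isozyme led: the log2 ratio of Shmt2 to Shmt1 was 0.30 in replicate 1 and -0.26 in replicate 2 (mean 0.02 ± 0.40, SD, n = 2).

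The isozymes stood apart once transcripts were separated. The deposited share of each gene's output put protein-coding transcripts at 51.7% and 56.4% of Shmt1, with retained-intron models at 29.5% and 28.9% and other noncoding models at 18.8% and 14.7%. Shmt1-201, the leading transcript, took 37.8% and 42.1%, the retained-intron model Shmt1-206 11.1% and 12.7%, and no other Shmt1 transcript averaged 10%. The median share of coding transcripts was 83.3% over 7431 protein-coding genes with several transcripts, and 22.5% of them, like Shmt1, stood under 60%. Counting coding transcripts only, Shmt1 stood at 10.7 and 16.6 TPM, below Shmt2 in both libraries, with log2 ratios of 1.25 and 0.56 in favour of Shmt2 (mean 0.91 ± 0.49, SD, n = 2). This alternative was chosen after seeing the data. It also depends on the models: the table holds 11 transcripts of Shmt1 but only 1 of Shmt2, for which the later M21 annotation lists 7, 3 of them with a retained intron. Short models weigh heavily on the TPM scale, since the 319.46 expected counts of Shmt1 retained-intron models in replicate 1 gave 6.1 TPM, against 7.81 TPM from 1638.63 counts on Shmt1-201.

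**Figure D2:**
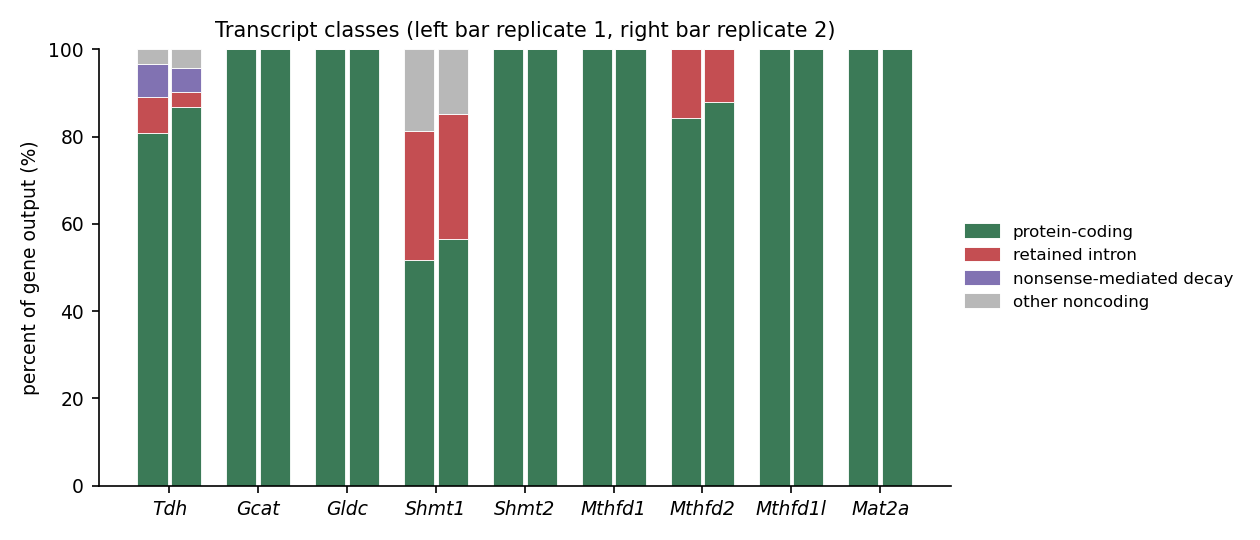
Percent of each gene's output, as deposited, by transcript class in replicate 1 (left bar) and replicate 2 (right bar). Protein-coding transcripts take 51.7% and 56.4% of Shmt1, more than 80% of Tdh and Mthfd2, and all or nearly all of the other members, 4 of which have only 1 transcript in the table.

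The methylenetetrahydrofolate enzymes carry the serine carbon to formate in mitochondria and take it back in the cytosol. Mthfd1 (ENSMUSG00000021048; chromosome 12, 76255298 to 76319803, plus strand), the cytosolic enzyme that joins dehydrogenase, cyclohydrolase and formate ligase activities, stood at 27.56 and 34.06 TPM (30.8 ± 4.60 TPM, SD, n = 2). Mitochondrial Mthfd2 (ENSMUSG00000005667; chromosome 6, 83305691 to 83325908, minus strand), a dehydrogenase and cyclohydrolase, stood at 14.41 and 16.22 TPM (15.3 ± 1.28 TPM). Its product goes to Mthfd1l (ENSMUSG00000040675; chromosome 10, 3973118 to 4167081, plus strand), the mitochondrial formate ligase, which stood at 12.88 and 11.22 TPM (12.1 ± 1.17 TPM). Cytosolic Mthfd1 was above both in each library, and no library value overlapped. The log2 ratio to Mthfd1 was -0.94 and -1.07 for Mthfd2 (mean -1.003 ± 0.095, SD, n = 2), and -1.10 and -1.60 for Mthfd1l (mean -1.35 ± 0.36). In fold terms Mthfd1 was 1.91 and 2.10 times Mthfd2, and 2.14 and 3.04 times Mthfd1l.

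**Figure D3:**
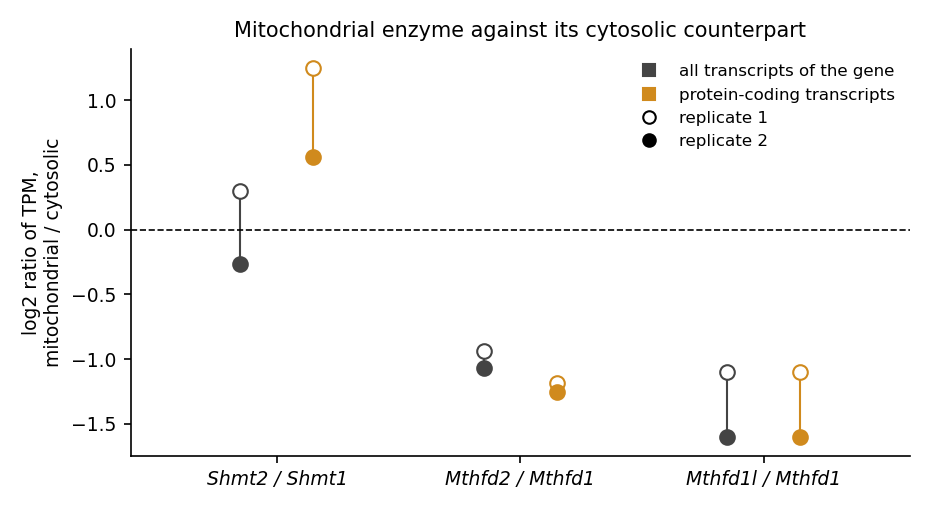
Log2 ratio of TPM of each mitochondrial enzyme to its cytosolic counterpart in replicate 1 (open) and replicate 2 (filled), from all transcripts of the gene (grey) or protein-coding transcripts (orange). Shmt2 to Shmt1 lies on both sides of 0 by gene and above 0 by coding transcripts, while Mthfd2 and Mthfd1l lie below Mthfd1 throughout. Mthfd1 and Shmt2 have 1 transcript each in the table, so coding transcripts can lower only their counterparts.

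Over the groups as a whole, the median mitochondrial member stood below the median cytosolic member in both libraries. The difference of medians in log2 TPM was -0.53 and -0.77 (mean -0.65 ± 0.17, SD, n = 2) for all 9. For the 5 folate enzymes it was -0.73 and -0.96 (mean -0.85 ± 0.17). With means of log2 TPM in place of medians the libraries lay further apart. The difference was then -0.23 and -1.08 for all 9, and -0.51 and -0.94 for the folate enzymes. The groups nevertheless overlapped, since Tdh and Gldc were above every cytosolic member in replicate 1, and Gldc was above Shmt1 and Mthfd1 in replicate 2. Gcat, Mthfd2 and Mthfd1l were below every cytosolic member in both libraries by gene TPM. The groups are small lists of unlike enzymes and transcript level is no measure of enzyme amount, so the values describe these genes only.

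Gldc, Shmt2, Mthfd1 and Mat2a each had 1 transcript in the table, which fixes their share at 100%. Of the 5 members with several transcripts, all 5 had the same leading transcript in both libraries, against 86% of 7431 such genes, and so small a count is not set apart from that share. Tdh-201 took 80.8% and 86.7% of Tdh. The retained-intron model Tdh-206 took 8.18% and 3.43%, and Tdh-205, annotated for nonsense-mediated decay, 7.67% and 5.57%. Mthfd2-201 took 84.3% and 87.9% of Mthfd2, and the rest lay on 3 retained-intron models. Gcat-201 took 75.7% and 77.5% and Gcat-203 24.0% and 22.3%. The remaining transcript counted under Gcat belongs to the neighbouring galanin receptor gene Galr3 in M21, and it took under 1% in each library.

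Mthfd1l was the member whose transcripts moved most between the libraries. Mthfd1l-202 took 76.3% and 64.0% and Mthfd1l-201 22.9% and 36.0%. The authors' interval for Mthfd1l-201 (its confidence level is not stated) ran from 1.65 to 3.92 TPM in replicate 1 and from 2.72 to 4.96 TPM in replicate 2. These intervals overlap. Those of Mthfd1l-202, from 8.69 to 11.003 TPM and from 6.15 to 8.37 TPM, do not. By gene such intervals were also apart between the libraries for 7 of the 9 members. Mthfd1l was among these, at 12.4 to 13.3 TPM in replicate 1 and 10.8 to 11.7 TPM in replicate 2. The bounds are of TPM and not of a transcript's share, so they do not measure the shift in shares.

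Mat2a (ENSMUSG00000053907; chromosome 6, 72432799 to 72439558, minus strand) encodes the catalytic subunit of methionine adenosyltransferase in cells outside the liver. It stood at 37.22 and 56.55 TPM, or 46.9 ± 13.7 TPM (SD, n = 2), and was the highest member in replicate 2. Its regulatory partner Mat2b stood at 16.82 and 19.48 TPM, and the liver form Mat1a at 0.02 and 0.03 TPM. In human cells the methyltransferase METTL16 binds hairpins in the 3′ untranslated region of this messenger, and splicing of its last intron follows the supply of S-adenosylmethionine. Mettl16 itself stood at 10.2 and 17.25 TPM. The letters TACAGANAA, which hold the methylated adenosine in those hairpins, occurred 6 times in the 1494 bases of the Mat2a 3′ untranslated region, shown with the motif in capitals and 8 bases on each side, in transcript order.
Mat2a site 1: gcgtaggtTACAGAGAAgccttcaa
Mat2a site 2: ttgtgataTACAGAGAAgtcacagg
Mat2a site 3: ggtgtagcTACAGAGAAaccagctt
Mat2a site 4: ggcgtaagTACAGAGAAgccatcac
Mat2a site 5: aggtgtccTACAGAAAAaccttggg
Mat2a site 6: tggtgtggTACAGAGAAgccagctt
Of these, 5 read TACAGAGAA and the fifth in order reads TACAGAAAA. Searched on the transcript strand, the motif was found at least once in 4.29% of 17579 untranslated regions and 2 or more times in 0.296%, and Mat2a was the only gene with 6. Among the 5772 regions of 747 to 2240 bases, close to Mat2a in length, 4.90% held it at least once. None of the other 8 members held it. A match of letters is no proof of a hairpin or of methylation. Mat2a had 1 transcript in the table, against 10 in M21 with 3 retained-intron models, so intron retention was not measured here.

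The start regions of the members were compared from RefSeq (GRCm38.p6), which matched 8 of 9 members, all but Tdh. Windows ran from 250 bases before to 50 bases after the start. On either strand, the CCAAT box was in 5 of 8, against 37.4% of 32851 windows, and Mthfd2 held 3 copies, the most of any member. The C/EBP-ATF letters TGATGNAA, which ATF4 binds in many amino acid genes, were in none of 8, against 3.97% of all windows. The E-box CACGTG was in Gcat only, against 7.15%, and TATAAA in Mat2a only, against 13.6%. At least 15 CpG dinucleotides were in 5 of 8, against 34.6%. The Mthfd2 window (chr6:83317555-83317854, minus strand) is shown for its 3 CCAAT boxes, in capitals as read on either strand, which lie 96, 47 and 22 bases before the start. The Mat2a window (chr6:72439507-72439806, minus strand) is shown as the only one with both a CCAAT and a TATA box, in capitals.
Mthfd2: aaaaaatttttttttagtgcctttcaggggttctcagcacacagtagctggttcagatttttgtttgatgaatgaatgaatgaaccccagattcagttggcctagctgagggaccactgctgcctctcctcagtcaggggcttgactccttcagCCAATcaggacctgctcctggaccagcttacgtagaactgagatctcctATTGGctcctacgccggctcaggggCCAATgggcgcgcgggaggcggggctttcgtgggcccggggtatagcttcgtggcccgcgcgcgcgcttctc
Mat2a: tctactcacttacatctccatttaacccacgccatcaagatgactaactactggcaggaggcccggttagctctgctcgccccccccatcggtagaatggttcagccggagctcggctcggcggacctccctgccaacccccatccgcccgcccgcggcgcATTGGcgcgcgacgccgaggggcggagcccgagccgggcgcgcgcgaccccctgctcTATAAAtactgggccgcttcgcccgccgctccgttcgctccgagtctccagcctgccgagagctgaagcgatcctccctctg
The starts of Mthfd2-201 and Mat2a-201 each lie 2 bases upstream of the window's start site. These matches describe letters only, since no binding or methylation was measured.

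Between the libraries, replicate 2 was higher for all 3 cytosolic members and lower for 5 of the 6 mitochondrial members in TPM, with Mthfd2 the exception. In all 4 of 9 members were higher, against 71.3% of 11436 genes whose mean level reached 1 TPM. Of the 10480 protein-coding genes among them 71.7% were higher, and the median one by 0.29 log2 units. All protein-coding genes summed to 193500 TPM in replicate 1 and 238378 TPM in replicate 2. With TPM rescaled to protein-coding genes the median difference was -0.0062. Tdh was the only member at least 2-fold apart, at a log2 difference of -1.38, or 2.60-fold lower in replicate 2. Of the 11436 genes 1.83% were 2-fold lower, 7.46% were 2-fold higher, and 0.708% were as low as Tdh. At 1.5-fold 1 member was higher, Mat2a, against 26.4% of genes, and Tdh alone was lower, against 6.15%. No test was possible with 1 library on each side.

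With TMM-scaled counts, which bring the median protein-coding gene to 0.03, all 6 mitochondrial members were lower in replicate 2 and all 3 cytosolic members higher. The share of genes higher was then 52.6%, and 52.9% among protein-coding genes. On that scale Tdh was at -1.60, Gldc at -0.78, Gcat at -0.57, Mthfd1l at -0.49, Shmt2 at -0.34 and Mthfd2 at -0.07 log2 units. Mat2a was at 0.32, Shmt1 at 0.29 and Mthfd1 at 0.02. The values of Mthfd2 and Mthfd1 are close to 0, and Mthfd2 had the opposite direction in TPM. Tdh remained the only member past 2-fold under TMM or DESeq2 factors (3.94% of genes lower and 3.27% higher under each) and rescaled TPM (3.8% and 2.43%). The same held for posterior mean TPM (1.58% and 6.82%) and for genes with at least 50 counts in a library (2.37% and 9.74% of 14038). The coefficient of variation between the libraries, which edgeR calls biological, was 0.275 over 16526 genes. Per-gene values ran from 0.221 to 0.283 for the members, highest for Tdh. With 2 libraries edgeR draws these strongly toward the level of all genes, so they do not measure the spread of each member.

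**Figure D4:**
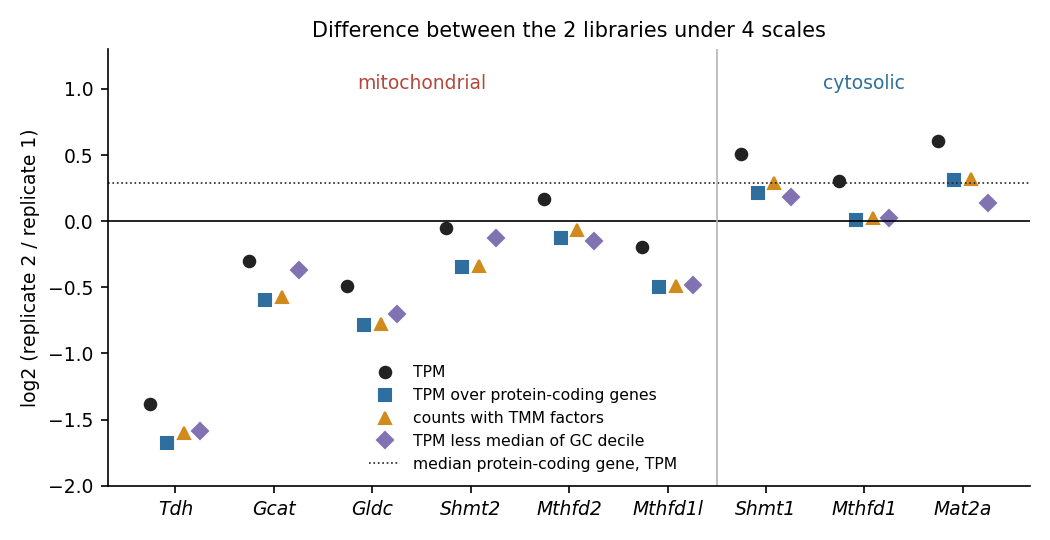
Log2 of replicate 2 over replicate 1 for each member under 4 scales, with mitochondrial members left of the vertical line and the median protein-coding gene in TPM (0.29) as a dotted line. Tdh lies between -1.38 and -1.67 throughout, and the cytosolic members lie at or above 0 on every scale.

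Other features of the libraries differed too. Over 10 equal groups of protein-coding genes by GC content, the median difference was 0.51 where GC was lowest and -0.0046 where it was highest, and the Mat2a transcript is 44.8% GC, Tdh 53.3% and Shmt2 57.4%. Less the median of its GC group, Tdh was at -1.59, Gldc at -0.70, Mthfd1l at -0.48 and Mat2a at 0.14. Of 8 feeder fibroblast markers 6 were at least 2-fold higher in replicate 2, against 7.46% of 11436 genes whose mean reached 1 TPM. Dcn, among those 6, was under that limit at 0.06 and 0.19 TPM, and Lum was at 0 in both. The list summed to 136 and 455 TPM, most of it Vim at 88.91 and 301.94 TPM, then Acta2 at 33.04 and 100.23 TPM. Thy1, of the same list, was lower in replicate 2, at 2.27 and 1.62 TPM. Whether feeder cells were present in either library was not tested. Pluripotency markers summed to 323 and 417 TPM, with Pou5f1 at 162.43 and 201.07 TPM, while Esrrb was lower in replicate 2, at 32.96 and 29.32 TPM. The median log2 difference of these 5 markers was 0.31 in TPM, close to the 0.29 of the median protein-coding gene, and 0.03 with TMM factors. All 5 liver markers were under 1 TPM, a level that 46.3% of protein-coding genes reached in both libraries. The part of these features in the differences of the members was not tested. In bulk RNA, fewer cells of a type and less RNA per cell cannot be told apart.

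Genes around the members are given as lists, chosen for their place in the pathway. The 3 serine synthesis enzymes lay within the range of the members: Psat1 stood at 40.26 and 45.25 TPM, Phgdh at 41.52 and 40.62 TPM and Psph at 10.5 and 8.79 TPM. In purine synthesis, which spends formyl groups, all 6 enzymes were above 10 TPM in both libraries, against 14.3% of protein-coding genes. Paics led at 56.3 and 76.28 TPM, then Gart at 43.42 and 52 TPM, and Ppat was lowest at 12.35 and 22.03 TPM. Of these 6, 5 were higher in replicate 2, against 71.3% of all genes, and 4 with TMM factors, against 52.6%, so both counts lie near the background.

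Other folate enzymes were weaker than the members, with a median of 1.97 TPM over the means of the libraries. Of these 11, 6 were above 1 TPM in both libraries, near the 46.3% of all protein-coding genes. Thymidylate synthase Tyms stood at 19.51 and 26.47 TPM and folylpolyglutamate synthase Fpgs at 16.21 and 14.16 TPM, while Ftcd, a histidine breakdown enzyme of liver, had 6 and 1 expected counts. Mthfd2l, the close relative of Mthfd2, stood at 0.45 and 0.47 TPM, far below Mthfd2 in both libraries. Mitochondrial Aldh1l2 stood at 0.65 and 0.46 TPM and cytosolic Aldh1l1, which oxidises formyl-folate, at 0.75 and 0.84 TPM. Folate entry was led by the receptor Folr1 at 109.68 and 127.46 TPM, above every member, then the reduced folate carrier Slc19a1 at 9.23 and 7.71 TPM, and Folr2 was lowest at 0.52 and 0.69 TPM. Sfxn1, which brings serine into mitochondria, stood at 9.47 and 7.25 TPM.

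Of 12 methionine cycle and transsulfuration genes 9 were above 1 TPM in both libraries, against 46.3% of protein-coding genes. Next to Mat2b by the mean was Ahcy, which clears S-adenosylhomocysteine, at 17.11 and 18 TPM. Their ranges overlapped, with Ahcy above Mat2b in replicate 1, and Mat1a was lowest. Methionine synthase Mtr stood at 3.44 and 5.14 TPM, below Mat2a by more than the spread of either. Glycine methyltransferase Gnmt, abundant in liver, stood at 0.83 and 0.27 TPM. In the polyamine branch, which draws on S-adenosylmethionine, Odc1 stood at 83.34 and 121.18 TPM, Srm at 38.29 and 38.24 TPM and Mtap was lowest at 6.82 and 13.71 TPM.

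All 7 amino acid carriers were above 1 TPM in both libraries, against 46.3% of protein-coding genes. Slc3a2 (69.35 and 51.33 TPM) and Slc38a2 (60.51 and 58.15 TPM) led, and the glycine carrier Slc6a9 was lowest (4.74 and 1.86 TPM). Replicate 2 was higher for 1 of 7, against 71.3% of all genes, and for 0 of 7 with TMM factors, against 52.6%. The lists were not tested against other genes, and these counts describe the same pair of libraries.

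**Figure D5:**
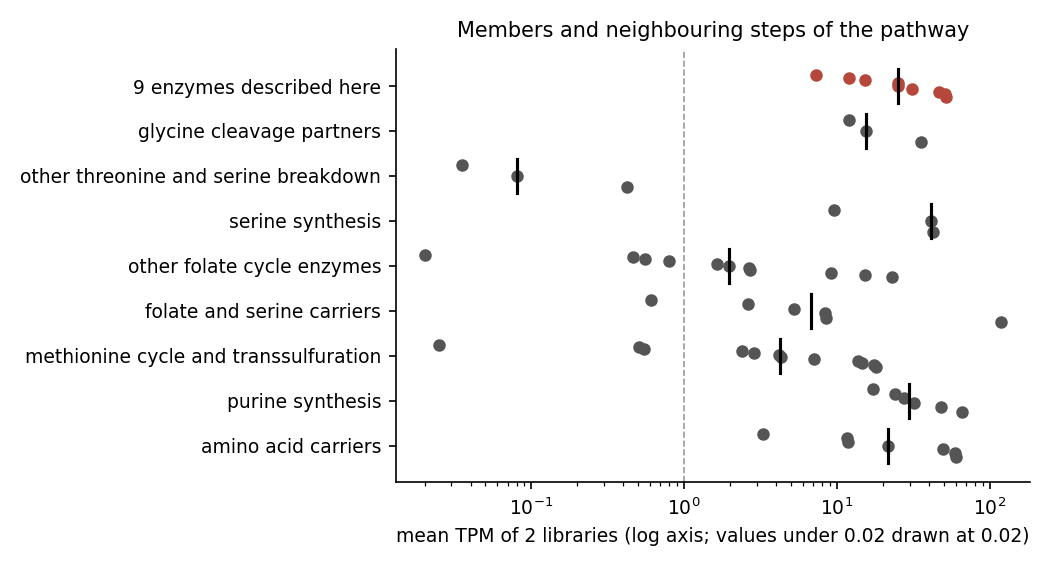
Mean TPM of both libraries (log axis) for the 9 members (red) and genes of neighbouring steps (grey), with each list's median as a vertical bar and 1 TPM as a dashed line. The members lie between 7.35 and 51.5 TPM, beside serine and purine synthesis, and the other breakdown enzymes lie under 1 TPM.

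Reads shared with other genes could touch some values. Among M21 transcripts, matches of at least 95% identity over 100 bases or more were found for Tdh, Shmt1 and Mat2a. The Tdh match was the processed pseudogene Gm13929, at 97.1% over 1125 bases, which had 31 and 15 expected counts. Those of Mat2a were Gm9523 and Particl, not used here, and 6030443J06Rik with 149 and 194 counts. The last exon of Shmt1 overlaps the opposite-strand gene Smcr8 over 184 bases, which had 2440 and 2650 counts, and no source used here states whether counting used strand. The paralogous members were far less alike: Shmt1 and Shmt2 matched at 71.0% over 814 bases and Mthfd1 and Mthfd1l at 70.4% over 1727 bases.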

How the data were processed

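Total RNA of ES-E14 cells was measured in 2 libraries of 1 group. Per the deposited text file, the authors quantified each library from transcriptome alignments to mm10 with the M4 annotation. No source used here names the aligner or quantifier. The authors deposited expected counts, TPM over all rows, FPKM, posterior mean TPM and the percent of a gene's output per transcript. The bounds of the authors' TPM interval were taken as deposited signal values.

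Names, coordinates and sequences came from GENCODE M21 on the same assembly; 42462 of 43346 genes matched. The 26248 rows named by a number and 97 spike-in rows were left out. Differences are log2 ratios of TPM with no pseudocount, over genes averaging at least 1 TPM. Counting error is small at 43163300 and 45573512 expected counts, so the spread between libraries limits precision. Expected counts were rounded for the dispersion and TMM factors of edgeR 4.0.16 (at least 10 in both libraries) and the size factors of DESeq2 1.42.0, in R 4.3.3, with no contrast tested. Transcripts were compared with BLAST 2.17.0, and figures were drawn with matplotlib 3.10.9 in Python 3.11.15. The dispersion estimate, scaling factors and fold calls were tested on simulated gene counts, and the other steps were not.

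Alternatives were other abundance units, limits, scalings and filters, counts per annotated length or with no length, means, a pseudocount of 1, and either library alone. Coding transcripts, GC centring and those for the median level were added after seeing the data. Members and lists were chosen with earlier results of these data known. All members, their transcripts averaging 10% or more, and the highest, second and lowest gene of each other list in the pathway were to be named, and any other list gene could be. Tdh-205 and Tdh-206 were chosen after their values were seen. The labels give no batch.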

Additional observations from a re-analysis of the deposited data

How the results depend on the processing

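All 9 members stood above the limit under every alternative to 1 TPM that was run, and Tdh was the only member 2-fold lower on each scale run, and the only one 1.5-fold lower in TPM. Leading transcripts were shared by posterior mean TPM too; either library alone, and the 4 members with 1 transcript, cannot show otherwise. At 1.5-fold, 1 member (Mat2a) was higher in replicate 2, against none at 2-fold. The mean log2 ratio of Shmt2 to Shmt1 had no settled sign: it was -0.0049 with posterior mean TPM, 0.47 with counts and no length, 0.91 with coding transcripts, and from -0.26 to 0.30 with either library left out. With no length correction the mitochondrial minus cytosolic difference was -1.09, or -0.56 for folate enzymes, and Mthfd2 over Mthfd1 was -1.89; these are not per length. Coding transcripts gave -0.58 for the folate enzymes and -1.22 for Mthfd2 over Mthfd1. Mthfd1 and Shmt2 had 1 transcript each in the table, so this scale could lower only their counterparts. Leaving out either library only returns the value of the other and is no further check. These values were -0.77 to -0.53 for all members and -0.96 to -0.73 for folate enzymes. They were -1.60 to -1.10 for Mthfd1l over Mthfd1 and -1.07 to -0.94 for Mthfd2 over Mthfd1. The median member was at 122 TPM when TPM was rescaled to protein-coding genes. The library difference of Mthfd2, 0.17 in TPM, was -0.0685 with TMM factors, -0.0675 with DESeq2 size factors, -0.12 rescaled and -0.15 less its GC group. For these changes the cause was not tested, other than the scale's own construction. The coefficient of variation was 0.30 with no count filter. No paired analysis was possible because the series has 1 group. No gene was named for likeness of pattern, since 2 libraries hold none across conditions.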
